A study of Capra hircus with 6 samples.

Results

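Collagen chain genes encode the polypeptides that wind around each other to build the collagens of the extracellular matrix. They were taken as every entry of the deposited gene count table whose gene name or gene symbol reads COL, a number, A and a number. This gave 42 of the 15944 genes in the table, 39 listed under their symbol and 3 under a LOC number (LOC102187872 and LOC108635555 carry the symbol COL5A1, and LOC108637488 carries COL19A1). The data were RNA-seq gene counts of dermal papilla cells (DPCs) grown from secondary hair follicles, the follicles that make the cashmere fibre, of Albas cashmere goats. The control group was 3 libraries of cells kept in standard culture without all-trans retinoic acid (ATRA), and the ATRA group was 3 libraries of cells given ATRA, the vitamin A metabolite that activates retinoic acid receptors. The dose was 100 µM and the exposure 24 h, which come from the methods and not from the labels. Both groups were wild-type primary cultures, expanded by passaging, from scapular skin of adult goats in the growth phase of the hair cycle, and all 6 libraries carry the same batch label. The labels do not say that the libraries of a group came from separate animals, although the methods name 3 goats, so p-values measure the spread between these libraries.

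Procollagen chains are hydroxylated and glycosylated in the endoplasmic reticulum, fold into trimers, are exported, lose their propeptides and are crosslinked outside the cell. Fibrillar collagens form the banded fibrils of skin, fibril-associated collagens with interrupted helices (FACIT) decorate those fibrils, network collagens form sheets such as basement membranes, beaded collagens form microfibrils, and transmembrane collagens stay anchored in the cell surface. The dermal papilla is a cluster of specialised fibroblasts at the base of the follicle that sits within a collagen-containing matrix and is separated from the epithelium by a basement membrane.

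Library totals lay between 36887160 and 38012771 counts in the control group and between 35532339 and 36870939 in the ATRA group. No pair of libraries within a group matched within sampling noise. Values below are normalized CPM (CPM, a gene's share of the library's counts, after TMM scaling of the libraries) unless stated otherwise, and they can be compared between libraries but not between genes, since gene length was not corrected. The labelled cell type was checked against its markers. All 7 fibroblast markers were present, and their summed normalized CPM lay between 25104 and 26736 in the control group and between 2462 and 2583 in the ATRA group. Of 14 dermal papilla markers, 13 were listed and 7 could be tested, and in the control group ALPL had 0 counts in every library while PROM1 and CORIN had at most 1 count. The summed dermal papilla markers lay between 8511 and 9446 in the control group, mostly through ACTA2 (6582 ± 462 (SD, n = 3)), and between 160.3 and 166.5 with ATRA. All 7 fibroblast and all 7 tested dermal papilla markers fell, as did 38.7% of all genes tested. WIF1, a dermal papilla marker, could be tested only through its counts in the control libraries, so its fall lends no support. The untested dermal papilla marker SOX2 stood higher in every ATRA library, at 10, 16 and 9 counts against 5, 0 and 2.

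ATRA-treated cells held far less collagen RNA than control cells, and the fall covered the chains of collagens I, III, V and VI and the FACIT chains COL12A1, COL14A1 and COL16A1. The 42 genes took 8.47%, 8.66% and 8.63% of all counts in Control 1, 2 and 3 and 0.895%, 0.938% and 0.952% in ATRA 1, 2 and 3. The share was 8.59% ± 0.1 (SD, n = 3) against 0.928% ± 0.0298 (SD, n = 3), a 9.25-fold difference, and the groups did not overlap (exact permutation test, two-sided, p = 0.1, the lowest value a design of this size can give). Since these were bulk samples, fewer cells of a type and less RNA per cell cannot be told apart. Within the collagen counts, the makeup also differed. The fibrillar share went from 69.2% ± 0.662 (SD, n = 3) to 47.2% ± 1.19 (SD, n = 3), while the FACIT share went from 8.46% ± 0.261 to 18.8% ± 1.11 and the network share from 1.39% ± 0.00907 to 9.52% ± 0.151 (SD, n = 3 each). The beaded share went from 20.4% ± 0.544 to 22.4% ± 0.271 (SD, n = 3). Without COL1A1, COL1A2 and COL3A1 the beaded share instead stood at 52.4% in the control group and 34.3% with ATRA, and the fibrillar share at 20.9% and 19.2%. The network share of all counts was nevertheless lower with ATRA, 0.0883% against 0.120%, so its larger part of the collagen counts came with a smaller part of the library. In each of these shares the 3 ATRA libraries lay on one side of the 3 control libraries (exact permutation test, two-sided, p = 0.1 for each).

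**Figure D1:**
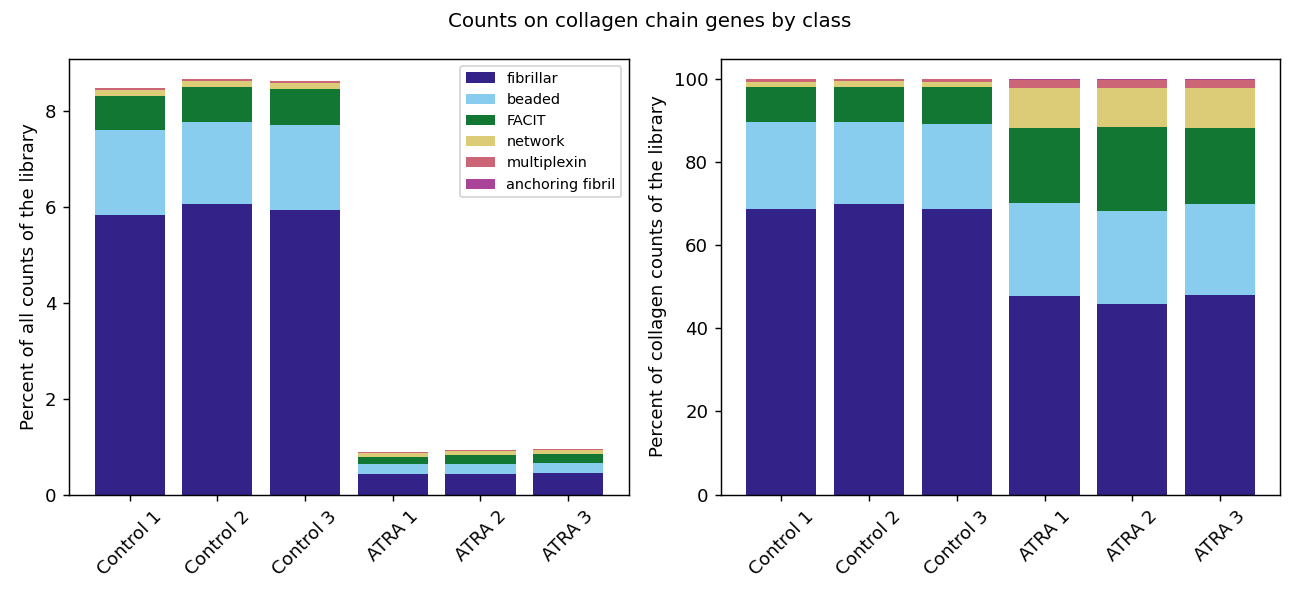
Stacked bars give the collagen counts of each library by class, as a percent of all counts (one panel) and as a percent of the collagen counts (the other panel). Collagens take 8.47% to 8.66% of the counts in the control libraries and 0.895% to 0.952% in the ATRA libraries, and within the collagen counts fibrillar chains take 69.2% in the control group and 47.2% with ATRA.

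The edgeR expression filter kept 30 of the 42 genes for testing. The other 12 had at most 12 counts in any library and are described with their classes. Of the 30, COL4A4, COL9A3, COL11A2, COL19A1 and LOC108637488 passed the filter through the ATRA libraries alone, and COL8A2 and COL21A1 through the control libraries alone. Such a pass favours genes that differ, so the p-values of these 7 genes lend no support. The counts that follow describe the tested genes and not the whole family. With edgeR's quasi-likelihood test and Benjamini-Hochberg adjustment, 7 collagen genes rose (5151 of the 12588 genes tested, or 40.9%, did so) and 23 fell (38.7% of genes tested). Without Control 3 or without ATRA 3 the number that rose was 4. With the study's thresholds for a differentially expressed gene (DEG), an absolute log2 fold change (log2FC) above 1 and an unadjusted p under 0.05, 5 were higher (13.7% of genes tested) and 20 were lower (17.3%). The number of higher DEGs was 3 with a filter of 1 CPM, 1 with the log2 ratio of mean CPM + 1, and 0 with R's t.test, named in the study's methods, on log2(CPM + 1), while 17 to 21 were lower in the settings tried. The groups did not overlap in 28 of the 30 genes (80.1% of genes tested), the exceptions being COL4A4 and COL8A1. The median log2FC of the tested collagen genes was -2.60, against 0.04 over all genes tested, whose 5th and 95th percentiles were -2.83 and 2.09. Among genes with a mean of at least 100 normalized CPM over the 6 libraries, 15 of 16 collagen genes were DEGs that fell, against 462 of 2009 genes (23.0%), and the exceptional gene, COL4A1, fell without passing the fold threshold. These 16 include COL5A1, LOC102187872 and LOC108635555, which share a symbol. The 5 DEGs that rose all had low levels, with at most 2.24 normalized CPM on average in the ATRA group. They include COL19A1 and LOC108637488, which share a symbol. With entries of the same symbol summed, an alternative chosen after seeing the data, 6 genes rose and 21 fell, and the DEGs were 4 and 18.

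**Figure D2:**
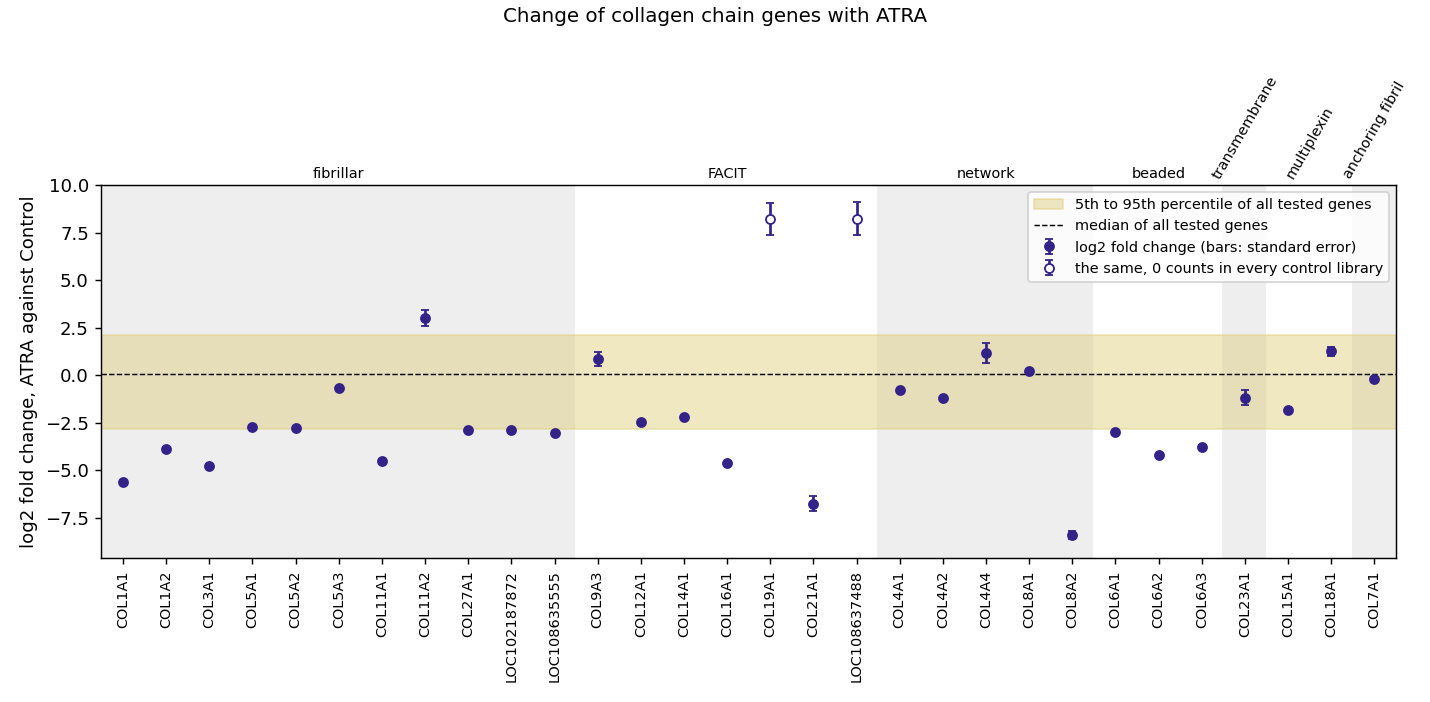
The log2 fold change of each tested collagen gene is plotted by class, with bars for its standard error, over a band from the 5th to the 95th percentile of all genes tested (-2.83 to 2.09) and a dashed line at their median (0.04). Most fibrillar and all beaded chains plotted lie near or under the lower edge of the band. Of the FACIT chains, COL16A1 and COL21A1 lie under it, COL12A1, COL14A1 and COL9A3 lie inside the band, and COL19A1 and LOC108637488 lie above it. These last, the open points, had 0 counts in every control library, so their plotted values are no measure of size.

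Fibrillar collagens had 13 entries, of which 11 were tested, 10 fell and 1 rose, with a median log2FC of -2.91 (all genes 0.04). COL1A1 and COL1A2 encode the chains of type I collagen, the main fibril of skin. COL1A1 stood at 27492, 27299 and 27529 normalized CPM in Control 1, 2 and 3 and at 561.1, 531.2 and 580.7 in ATRA 1, 2 and 3. Its log2FC was -5.62 (SE 0.0721, edgeR adjusted p = 8.73e-21), a 49.2-fold fall, and the share of all counts on this gene went from 2.32% to 0.0658%. COL1A2 stood at 28049, 29423 and 28069 in the control group and at 1916, 1856 and 2081 with ATRA, a log2FC of -3.87 (SE 0.0696, edgeR adjusted p = 4.35e-19). In both genes every ATRA library lay far under every control library, and COL1A1 fell more than its partner. Together they held 55.2% ± 0.514 of the collagen counts in the control group and 31.9% ± 1.24 with ATRA (SD, n = 3 each).

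COL3A1, the chain of type III collagen, which forms fibrils with type I in skin, stood at 5739, 6094 and 5934 normalized CPM in the control group and at 205.3, 218.6 and 227.9 with ATRA. Its log2FC was -4.77 (SE 0.0703, edgeR adjusted p = 3.43e-20). COL11A1, a chain of type XI collagen, which helps to start fibrils, stood at 1980, 2144 and 2096 in the control group and at 84.6, 95.9 and 93.7 with ATRA. It fell by 4.50 on the log2 scale (SE 0.0718, edgeR adjusted p = 8.01e-20). The groups were well apart in both genes. COL11A2, another type XI chain that was singled out after its values were seen, moved the other way at a low level, from 3, 4 and 6 counts in the control libraries to 59, 37 and 47 counts in the ATRA libraries. Its log2FC was 3.0 (SE 0.408, edgeR adjusted p = 2.24e-06), and it passed the filter through the ATRA libraries alone. Of the 11 tested fibrillar genes, no other rose.

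Type V collagen, whose chains are encoded by COL5A1, COL5A2 and COL5A3, controls the diameter of type I fibrils. COL5A1 stood at 1081, 1204 and 1205 normalized CPM in the control group and at 163.7, 168.2 and 194.8 with ATRA (log2FC -2.73). COL5A2 stood at 2893, 3120 and 3019 in the control group and at 402.9, 448.4 and 458.2 with ATRA (log2FC -2.79). Both fell to a like degree. COL5A3 fell much less, from 51.9, 50.9 and 52.1 to 30.9, 30.4 and 34.4 normalized CPM, a log2FC of -0.70 (SE 0.0705, edgeR adjusted p = 4.67e-08). The entries LOC102187872 (log2FC -2.91) and LOC108635555 (log2FC -3.02), which also carry the symbol COL5A1, fell close to it. How reads shared by these 3 entries were counted is not given in the sources used here, so their separate values are uncertain. Summed, as an alternative chosen after seeing the data, they held 96016, 98568 and 101975 counts in the control libraries and 17901, 17872 and 18268 with ATRA, a log2FC of -2.89 (SE 0.0618). COL27A1, singled out after its values were seen, encodes a fibrillar chain of cartilage and fell by 2.90 on the log2 scale. The fibrillar genes left out by the filter were COL2A1, the main cartilage collagen, with 7, 9 and 6 counts with ATRA and 0 in the control group, and COL24A1, with 4, 3 and 1 counts in the control group and 6, 10 and 10 with ATRA. In both, every ATRA library stood above every control library.

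**Figure D3:**
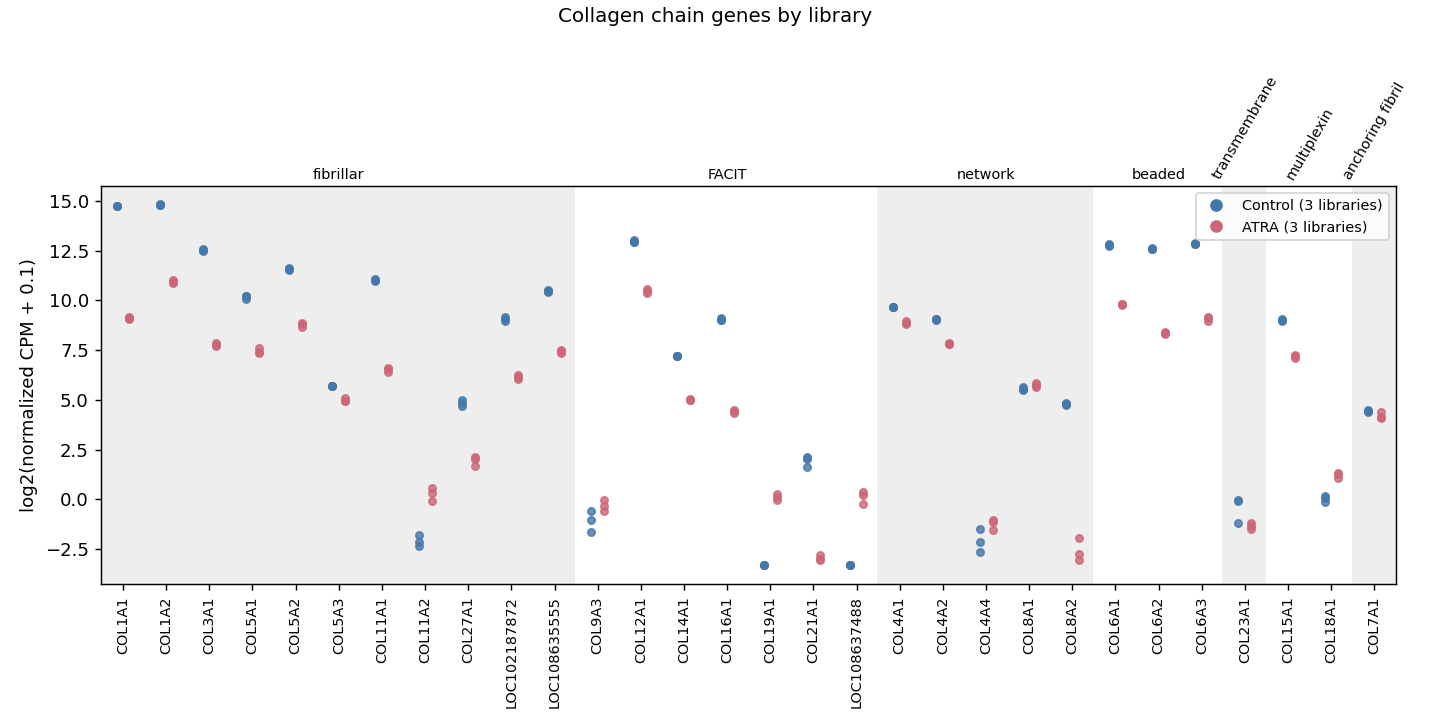
Each tested collagen gene is plotted by class as log2(normalized CPM + 0.1) in the 3 control and the 3 ATRA libraries. In COL1A1 the control libraries lie between 27299 and 27529 normalized CPM and the ATRA libraries between 531.2 and 580.7, whereas in COL8A1 the groups overlap.

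FACIT collagens had 9 entries, of which 7 were tested, 4 fell and 3 rose, with a median log2FC of -2.22 (all genes 0.04). COL12A1, the chain of type XII collagen on the surface of type I fibrils, stood at 7720, 7739 and 8233 normalized CPM in the control group and at 1309.9, 1518 and 1440 with ATRA. Its log2FC was -2.47 (SE 0.0681, edgeR adjusted p = 1.70e-16). Its part of the collagen counts was larger with ATRA, 18.1% ± 1.12 against 7.79% ± 0.271 (SD, n = 3 each). COL16A1, a FACIT chain of the dermis, stood at 516.2, 551.2 and 520.0 in the control group and at 21.4, 19.9 and 22.2 with ATRA, a log2FC of -4.64 (SE 0.0679, edgeR adjusted p = 3.25e-20). COL14A1, singled out after its values were seen, encodes type XIV collagen, a relative of type XII, and fell by 2.22 on the log2 scale.

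COL21A1, a FACIT chain of vessel walls and other connective tissue, was nearly absent with ATRA. It had 133, 128 and 97 counts in the control libraries and 2, 1 and 1 counts in the ATRA libraries, a ratio of control to ATRA of 120.6 after scaling (95% counting interval 46.7 to 445.1, counting error only; edgeR adjusted p = 1.20e-11). COL19A1, a rare chain found at basement membrane zones, showed the reverse and was singled out after its values were seen. No control library held a count of it, while the ATRA libraries held 42, 39 and 45 counts, at least 10.4-fold higher when the control libraries are set to a floor of 3 counts each (edgeR adjusted p = 1.46e-07). LOC108637488, its neighbour in the RefSeq gene table of assembly ARS1.2 and given the same symbol in the deposited counts, stood at 0 counts in Control 1, 2 and 3 and at 46, 33 and 50 in ATRA 1, 2 and 3, at least 10.7-fold higher (edgeR adjusted p = 2.45e-07). How reads were divided between these entries is uncertain, and the sum of both was 88, 72 and 95 counts with ATRA. COL21A1 passed the filter through the control libraries alone, and COL19A1 and LOC108637488 through the ATRA libraries alone, so their p-values lend no support. COL9A3, a chain of the cartilage FACIT type IX, rose from 12, 18 and 7 counts to 25, 30 and 36 counts (log2FC 0.86, SE 0.371, edgeR adjusted p = 0.0405), and this call was lost when any of Control 1, Control 3, ATRA 2 or ATRA 3 was left out (log2FC 0.57 to 0.88), and also with the replicate number as a block (log2FC 0.87). With DESeq2 (log2FC 0.85) and with t.test on log2(CPM + 1) the call of COL9A3 was also lost. Like COL19A1, COL9A3 passed the filter through the ATRA libraries alone. Its partner COL9A2 had 0 counts in 5 libraries and 1 count in ATRA 3, and COL20A1 had at most 1 count in any library, so neither was tested.

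Network collagens had 8 entries, of which 5 were tested, 3 fell and 2 rose, with a median log2FC of -0.79 (all genes 0.04). COL4A1 and COL4A2, neighbours in the RefSeq table, encode the chains of type IV collagen found in nearly all basement membranes. COL4A1 stood at 799.6, 823.3 and 811.4 normalized CPM in the control group and at 459.0, 455.4 and 493.7 with ATRA (log2FC -0.79, SE 0.0570, edgeR adjusted p = 3.56e-10). COL4A2 stood at 527.1, 528.8 and 524.0 in the control group and at 224.0, 220.5 and 230.8 with ATRA (log2FC -1.23, SE 0.0542, edgeR adjusted p = 2.21e-13). Both fell with no overlap between groups, by less than the type I chains. Their summed part of the collagen counts was 8.83% ± 0.194 with ATRA and 1.32% ± 0.00757 in the control group (SD, n = 3 each).

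The chains of type VIII collagen, which forms lattices around vessels and in the cornea, parted. COL8A2 stood at 844, 867 and 926 counts in the control libraries and at 1, 7 and 2 counts in the ATRA libraries. Its log2FC was -8.41 (SE 0.210, edgeR adjusted p = 3.99e-17), and the scaled ratio of control to ATRA was 355.4 (95% counting interval 192.9 to 741.9, counting error only). COL8A2 passed the filter through the control libraries alone, so this p-value lends no support. The log2FC was -9.48 without ATRA 2, the library with 7 counts. COL8A1 stood at 46.0, 50.1 and 44.98 normalized CPM in the control group and at 49.7, 57.9 and 53.6 with ATRA, and these groups overlapped. Its rise was small (log2FC 0.19, SE 0.0727, edgeR adjusted p = 0.0227) and was lost when any of Control 1, Control 3, ATRA 2 or ATRA 3 was left out (log2FC 0.13 to 0.18). The call was also lost with DESeq2 (log2FC 0.17) and with t.test on log2(CPM + 1). COL4A4, a type IV chain of kidney and other specialised basement membranes singled out after its values were seen, had 8, 2 and 4 counts in the control group and 17, 11 and 15 with ATRA. Its rise (log2FC 1.17, SE 0.526, edgeR adjusted p = 0.0494) was just past the threshold and was lost with RLE scaling, with the replicate number as a block (log2FC 1.19) and without any 1 of Control 2, Control 3, ATRA 1 or ATRA 3 (log2FC 0.80 to 1.10), while it was 1.80 without Control 1. DESeq2 (log2FC 1.16), t.test on log2(CPM + 1) and the fit with no filter also lost the call of COL4A4. This gene passed the filter through the ATRA libraries alone, so its p-value lends no support. Untested were COL4A5, with 6, 1 and 6 counts in the control group and 2, 3 and 2 with ATRA, COL4A3, with 0, 0 and 2 counts and 5, 2 and 3, and COL10A1, the collagen of hypertrophic cartilage, with 1 count in ATRA 1 and 0 in every other library.

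Beaded collagens had 4 entries, of which 3 were tested and all 3 of these fell, with a median log2FC of -3.76 (all genes 0.04). COL6A1, COL6A2 and COL6A3 encode the chains of type VI collagen, the microfibril that links cells to the surrounding matrix. COL6A1 stood at 7365, 6887 and 7105 normalized CPM in the control group and at 873.8, 885.3 and 899.6 with ATRA (log2FC -3.01, SE 0.0618, edgeR adjusted p = 2.67e-18). COL6A2, its neighbour in the RefSeq table, stood at 6412, 6017 and 6155 in the control group and at 329.3, 321.3 and 343.0 with ATRA (log2FC -4.23, SE 0.0664, edgeR adjusted p = 6.56e-20). COL6A3 stood at 7259, 7269.5 and 7599.7 in the control group and at 506.2, 562.7 and 562.5 with ATRA (log2FC -3.76, SE 0.0684, edgeR adjusted p = 5.00e-19). In all 3 chains the ATRA libraries lay far under the control libraries. COL28A1, a beaded chain of nervous tissue, had 0, 0 and 1 counts in the control group and 7, 10 and 4 with ATRA and was not tested.

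Transmembrane collagens were scarce in these cells, and only COL23A1 of 4 was tested. It had 26, 28 and 11 counts in the control libraries and 11, 15 and 12 with ATRA (log2FC -1.20, SE 0.400, edgeR adjusted p = 0.0109). After scaling the groups were adjacent but did not overlap, since Control 3 at 0.342 normalized CPM lay next to ATRA 2 at 0.340, and the call was lost without Control 1 (log2FC -1.03) or without Control 2 (log2FC -0.99), and with scaling by library size only (log2FC -0.72). With t.test on log2(CPM + 1) the call of COL23A1 was lost as well. COL17A1, the hemidesmosome collagen of keratinocytes, had 9, 5 and 6 counts in the control group and 9, 6 and 12 with ATRA. COL13A1, an adhesion collagen, had 4, 4 and 3 counts with ATRA and none in the control group, and COL25A1, a neuronal collagen, had 1 count in ATRA 1 and 0 in every other library. The filter left these 3 genes out. Fitted with no filter, COL13A1 was higher with ATRA (edgeR adjusted p = 0.0120), while COL17A1 (edgeR adjusted p = 0.991) and COL25A1 (edgeR adjusted p = 0.454) did not pass. In the same fit COL2A1 and COL28A1 were also higher and COL26A1 was lower. The other genes left out by the filter did not pass, among them COL24A1 (edgeR adjusted p = 0.123). At so few counts, these p-values lend no support.

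The multiplexins COL15A1 and COL18A1, which carry heparan or chondroitin sulfate chains at basement membrane zones, moved in opposite directions. COL15A1 stood at 523.2, 506.6 and 531.5 normalized CPM in the control group and at 137.5, 153.7 and 148.7 with ATRA (log2FC -1.83, SE 0.0595, edgeR adjusted p = 2.18e-15). COL18A1, the precursor of endostatin, had 30, 26 and 33 counts in the control libraries and 102, 88 and 98 with ATRA (log2FC 1.26, SE 0.229, edgeR adjusted p = 6.51e-05). In both the groups were apart. COL7A1, the chain of the anchoring fibrils that fix the epidermis to the dermis, stood at 21.3, 21.0 and 22.1 normalized CPM in the control group and at 17.5, 17.1 and 21.0 with ATRA. It fell by 0.21 on the log2 scale (SE 0.0897, edgeR adjusted p = 0.0367) with TMM scaling but stood higher, at a log2FC of 0.26, with scaling by library size only. Its call was also lost with upper-quartile scaling (log2FC -0.14), with t.test on log2(CPM + 1) and when any 1 library other than ATRA 3 was left out (log2FC -0.24 to -0.17). COL26A1, placed in no class, had 1, 4 and 3 counts in the control group and 0, 1 and 0 with ATRA and was not tested.

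**Figure D4:**
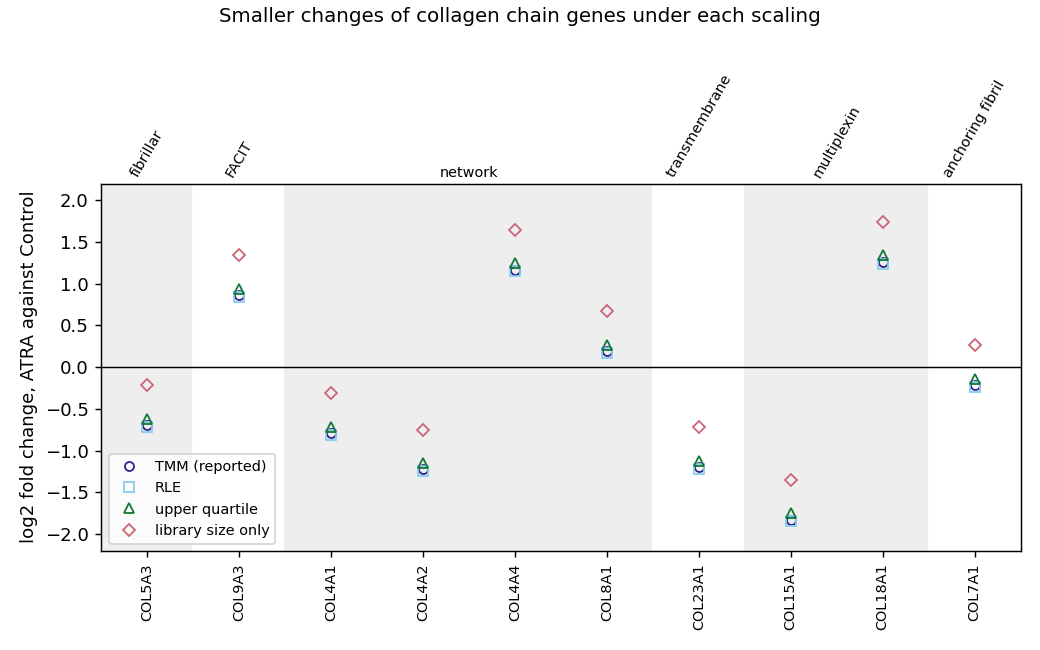
The log2 fold change of the 10 tested collagen genes with smaller changes is plotted under TMM, RLE, upper-quartile and library-size scaling. Only COL7A1 crosses 0, from -0.21 with TMM to 0.26 with library size only.

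The directions above were checked under other scalings. The median log2FC of all genes tested was 0.04 with TMM scaling, 0.02 with RLE, 0.11 with upper-quartile scaling and 0.52 with library size only. With library size only, 8 collagen genes were higher and 21 lower. Computing the TMM factors without the collagen genes, an alternative chosen after seeing the data, left the median at 0.04.

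Ratios of chains that join the same trimer were computed within each library, where no scaling enters. They are ratios of read counts and not of molecules. COL1A1 to COL1A2 stood at 0.980, 0.928 and 0.981 in the control libraries and at 0.293, 0.286 and 0.279 with ATRA, a 3.37-fold fall of the ratio (log2 difference -1.75, SE 0.0333). Type VI collagen also parted, with COL6A2 to COL6A1 at 0.871, 0.874 and 0.866 against 0.377, 0.363 and 0.381 (log2 difference -1.22, SE 0.0218) and COL6A3 to COL6A1 lower by a log2 difference of -0.76 (SE 0.0551). COL4A1 to COL4A2 went up, from 1.52, 1.56 and 1.55 to 2.05, 2.07 and 2.14 (log2 difference 0.44, SE 0.0223), and COL5A3 to COL5A1 by 2.03 (SE 0.0641). In these 5 ratios the groups did not overlap (exact permutation test, two-sided, p = 0.1 for each, the smallest this design allows, and 0.12 after Benjamini-Hochberg adjustment over 6 ratios). COL5A1 to COL5A2 overlapped between the groups, at 0.374, 0.386 and 0.399 against 0.406, 0.375 and 0.425, a log2 difference of 0.06 (SE 0.0597; exact permutation test, two-sided, p = 0.4). These type V ratios use 1 of the 3 entries with the symbol COL5A1. With the 3 summed, as an alternative chosen after seeing the data, COL5A1 to COL5A2 stood at 1.07, 0.977 and 1.05 against 1.03, 0.904 and 0.964, a log2 difference of -0.10 (SE 0.0670; exact permutation test, two-sided, p = 0.2), so its sign depended on the entries counted. COL5A3 to COL5A1 then differed by 2.19 on the log2 scale (SE 0.0222). Ratios with COL8A2, COL4A5 or COL9A2 were not computed, since these had under 10 counts in some library.

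**Figure D5:**
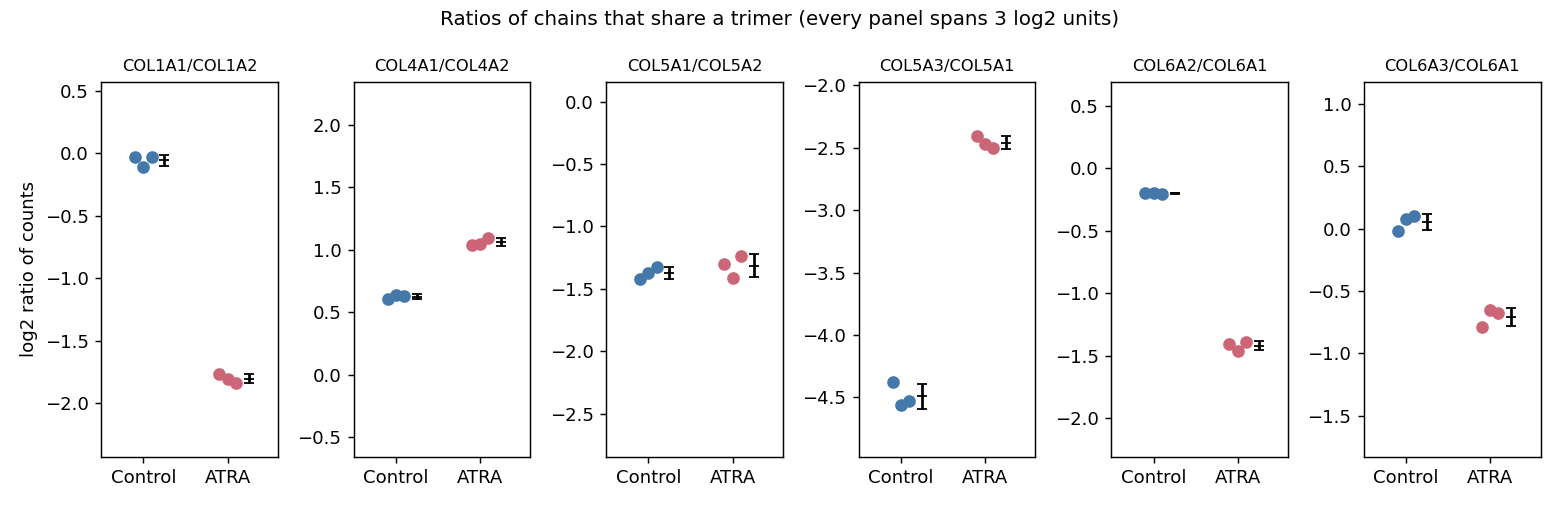
Each panel plots the log2 ratio of counts of a chain pair in the 3 control and 3 ATRA libraries, with the group mean and SD beside the points, and every panel spans 3 log2 units. COL1A1 to COL1A2 drops by 1.75, whereas COL5A1 to COL5A2 overlaps between the groups.

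Genes that make, process, bind and degrade collagen were counted from lists of known function. Of 9 tested genes of prolyl hydroxylation, which makes the helix stable, 9 fell (median log2FC -1.47), with P3H4, a partner of the prolyl and lysyl hydroxylase complex, falling most (log2FC -2.02, SE 0.0625). Of 8 tested genes of lysyl hydroxylation and glycosylation, 3 rose and 4 fell (median -0.33). The collagen chaperone FKBP10 led the falls (log2FC -1.63, SE 0.0636), and the collagen galactosyltransferase COLGALT2, with 0 counts in each of the control libraries and 128, 166 and 144 in ATRA 1, 2 and 3, was at least 36.1-fold higher. Of 8 tested genes of folding and export, 3 rose and 5 fell (median -0.28). Here CREB3L1, a transcription factor for secretory genes, fell by 2.25 on the log2 scale (SE 0.0754), whereas HSPA5, the general chaperone of the endoplasmic reticulum, rose from 2159 ± 46.6 to 8645 ± 406 normalized CPM (SD, n = 3 each; SE of the log2FC 0.0616).

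Outside the cell, 6 of 7 tested genes of propeptide removal fell and 1 rose (median -2.36). The enhancer of C-propeptide cleavage PCOLCE2 fell by 4.18 on the log2 scale (SE 0.0640), and the N-propeptidase ADAMTS14 rose (log2FC 3.94, SE 0.0717), from 262, 283 and 301 counts to 5890, 5928 and 5663. All 5 crosslinking enzymes fell (median -1.63), and LOX, the lysyl oxidase, fell most (log2FC -3.73, SE 0.0805). Of 6 tested collagen receptors, 3 fell and 1 rose (median -0.84), with integrin ITGA1 falling (log2FC -3.70, SE 0.0706) and ITGA10 rising at a low level (log2FC 2.39, SE 0.195). Of 6 tested genes of collagen cleavage and uptake, 5 fell and 1 rose (median -0.73), led by the collagen-degrading protease CTSK (log2FC -3.17, SE 0.0631) and by the gelatinase MMP9, which rose from 2, 9 and 6 counts to 42, 37 and 48. The adjusted p of each gene named from these lists was under 0.05 by edgeR's quasi-likelihood test with Benjamini-Hochberg adjustment, but COLGALT2 and MMP9 passed the filter through the ATRA libraries alone, so theirs lends no support. The lists' counts are read against 40.9% higher and 38.7% lower over all genes tested.

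Markers of keratinocytes, endothelial cells, leukocytes, melanocytes and chondrocytes were low in both groups. Of the smooth muscle markers, CNN1 (mean 140.9 normalized CPM) and SMTN (101.2) were not low in the control group, whereas MYH11 (0.367), DES (0.503) and RGS5 (0.0519) were. The range of summed normalized CPM in the control group and with ATRA was 3.11 to 4.98 and 5.37 to 5.97 for 6 listed keratinocyte markers, 0.903 to 1.24 and 6.19 to 9.16 for 5 endothelial markers, and 9.24 to 12.9 and 41.3 to 44.2 for 4 leukocyte markers. It was 16.1 to 17.6 and 32.2 to 39.0 for 2 melanocyte markers, 0.680 to 1.09 and 0.967 to 1.27 for 6 chondrocyte markers, and 225.9 to 261.7 and 42.0 to 44.6 for 5 smooth muscle markers. PECAM1, an endothelial adhesion molecule, stood at 0 counts in the control group and at 242, 340 and 206 counts with ATRA. The expression filter was passed by PECAM1 and the chondrocyte marker SOX9 through the ATRA libraries alone. The smooth muscle marker DES passed through the control libraries alone, so the calls of these genes lend no support. Of the tested markers of each list, 1 of 1 keratinocyte, 2 of 3 endothelial, 2 of 2 leukocyte, 1 of 2 melanocyte and 1 of 1 chondrocyte markers rose, 1 melanocyte marker fell, and 3 of 4 smooth muscle markers fell. Over all genes tested, 40.9% rose and 38.7% fell. Untested members went both ways. KRT14 went from 20, 14 and 10 counts to 3, 0 and 0, and KRT5 from 2, 7 and 3 to 0. KDR went from 5, 6 and 10 counts to 2, 1 and 0, and HAPLN1 from 9, 3 and 7 to 1, 0 and 0. CDH1 and CD3E stood higher in every ATRA library, at 5 counts or fewer. The changes of the tested markers moved with the rises of COL11A2, COL18A1, COL19A1, COL4A4 and COL9A3 and with the fall of COL1A1 and its partners, and their part in those results was not tested.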

How the data were processed

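RNA was poly(A)-enriched and sequenced. The authors deposited whole-number read counts per gene, not normalized, for 6 libraries in 1 table, and every per-sample column was used. The submitters' processing notes name HISAT2, featureCounts and DESeq2 without versions, and the methods name fastp and TrimGalore for read cleaning. The genome build used for counting and the treatment of shared reads are not given in the sources used here. Coordinates entered only through the gene order of RefSeq assembly ARS1.2, which gave the neighbours named above.

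All genes were filtered by edgeR's filterByExpr with the group, TMM-scaled and tested by the robust quasi-likelihood method of edgeR, two-sided, without covariates, with Benjamini-Hochberg adjustment over 12588 genes and a threshold of 0.05. The log2FC used a prior count of 0.125, and its SE was derived from the F statistic. Shares and ratios were compared by exact permutation tests. Counting intervals are 95% exact binomial intervals and, like the floor of 3 counts, cover counting error only. R's t.test, named in the study's methods, served as an alternative only, since raw counts do not suit it. Normalized CPM used the summed counts of the genes kept, multiplied by the TMM factor, as library size. The fit was tested on simulated data, in which 200 of 12113 genes changed, a far smaller part than was called here. It recovered 191 of the 200 and also called 21 unchanged genes at an edgeR adjusted p under 0.05.

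The collagen genes and lists were chosen with earlier results of these data known. Values per library are given for up to 3 tested members with the largest log2FC in each of 5 classes (adjusted p under 0.05, a mean of at least 1 normalized CPM, no overlap), the 2 with the highest mean, every tested member of the added classes, and members of trimer pairs. In each pathway list the largest changes in each direction are named. All gene IDs matched RefSeq assembly ARS1.2. COL22A1, COL4A6, COL6A5, COL6A6 and COL9A1 were not analysed here. Alternatives covered scaling, filters, thresholds, DESeq2, a replicate block, and the removal of single libraries. The software was edgeR 4.0.16 and DESeq2 1.42.0 in R 4.3.3, and scipy 1.17.1 in Python 3.11.15.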

Additional observations from a re-analysis of the deposited data

How the results depend on the processing

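Of the 30 tested collagen genes, 25 kept their direction and their side of the threshold in every setting in which they were tested (15 to 17 settings a gene), and 1, COL7A1, turned its direction, to a log2FC of 0.26 with library size only. The log2 ratio of mean CPM + 1 took its adjusted p from the main fit, so in that setting no call could be lost. The number that fell stayed between 21 and 24, and leaving out 1 library gave 21 to 23. The number that rose (7) was 4 with a filter of 1 CPM, 4 with t.test on log2(CPM + 1), 9 with no filter, and 4 to 6 when 1 library was left out. The DEGs that rose (5) were 3 with the CPM filter, 3 with an absolute log2FC above 2, 1 with the log2 ratio of mean CPM + 1, 7 with DESeq2 and with no filter, 4 to 5 when 1 library was left out, and 0 with t.test, where the highest rise, of LOC108637488, was 0.998 on the log2(CPM + 1) scale. Without Control 3 or without ATRA 3, 4 genes rose. The calls for COL4A4, COL8A1, COL9A3, COL23A1 and COL7A1 were lost in at least 1 setting. COL4A4, COL9A3 and COL23A1 had at most 36 counts in any library, whereas COL8A1 and COL7A1 had more counts and small changes (log2FC 0.19 and -0.21). The fitted log2FC of COL8A2 (-8.41) moved to -9.48 without ATRA 2. On the log2(CPM + 1) scale, by t.test or by the ratio of means, it was -4.73.

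Whether the replicate numbers pair the libraries could not be decided. After each gene's group mean was subtracted from its log CPM, same-numbered libraries correlated at 0.089, 0.03 and -0.076. Not every library correlated best with its own number. Such weak correlations of what is left within a group cannot exclude pairing. With the replicate block, 5 genes rose and 23 fell, and the DEGs were 5 and 20, with the calls of COL4A4 and COL9A3 lost. The collagen share of all counts was 10.1% and 0.787% (control and ATRA) with TMM library sizes and 9.35% and 0.995% without the 10 most abundant other genes. Without COL1A1, COL1A2 and COL3A1, the class shares of the collagen counts were 20.9% and 19.2% fibrillar, 21.7% and 28.7% FACIT, 3.58% and 14.6% network, and 52.4% and 34.3% beaded, so the beaded share then moved down. With the 3 entries of COL5A1 summed, the log2 difference was -0.0982 for COL5A1 to COL5A2, against 0.06, and 2.189 for COL5A3 to COL5A1, against 2.03.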

Other observations

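The table holds 22 further entries that its annotation describes as collagens or collagen-like but whose names are not chain symbols, and 10 of them passed the expression filter. By edgeR's quasi-likelihood test with Benjamini-Hochberg adjustment, 4 rose and 1 fell (40.9% and 38.7% of all genes tested). Their summed counts were 1581, 1997 and 1261 in the control libraries and 1838, 1269 and 2369 in the ATRA libraries, which is 0.05% and 0.541% of the counts of the 42 chain genes, so they leave the collagen share of the libraries nearly as it was. LOC108633857, which the table describes as a collagen-like chain but gives the symbol Kdm2b, the name of a chromatin gene, went from 154, 152 and 141 counts to 614, 531 and 586 (log2FC 1.52), and LOC102176755 from 1, 11 and 3 counts to 56, 35 and 41 (log2FC 2.68). Both were chosen after their values were seen.

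Between libraries of a group, the 16 collagen genes with at least 100 normalized CPM had a median coefficient of variation of 3.30% in the control group and 5.77% with ATRA, against 4.04% and 4.70% for the 2009 genes at that level.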
